A study of Mus musculus with 6 samples.

Results

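Imprinted genes are expressed mainly from the copy inherited from the mother or mainly from the copy inherited from the father. The 41 genes described here are a list of genes known to be imprinted in mouse, of which 21 are paternally expressed and 18 maternally expressed, while Gnas gives transcripts of both kinds and Ddc8 was assigned to neither class. A probe was named for 40 of the 41, and 38 were tested among 14906 genes. H19, a maternally expressed noncoding RNA, had no probe named through the gene table and was not analysed here. The study compared RNA from 3 pools of Arid3b-null embryo heads with RNA from 3 pools of wild type heads at embryonic day 9.5. Arid3b binds AT-rich DNA through an ARID domain, and the labels describe the null embryos by that genotype alone. Each pool combined 4 heads, taken with the branchial arch that forms the jaws, and was hybridised to 1 one-colour Agilent array. The labels do not say whether the pools of a group drew on different litters, and p-values therefore cover only the spread among these pools.

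Imprinting is set up in the germ line, where DNA methylation marks control regions on the maternal or the paternal chromosome, and those marks are kept through the divisions of the embryo. Many imprinted genes lie in clusters that share a control region, and genes of a cluster can be expressed from opposite parental copies. As a class they are known for effects on growth: Igf2, a fetal growth factor, is paternally expressed and promotes growth, whereas Igf2r, which carries Igf2 to the lysosome, and Cdkn1c, an inhibitor of the cell cycle, are maternally expressed and limit it. The arrays measured total RNA of each gene and did not separate the parental copies, so the values say nothing about which copy was read.

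The promoters of 6 members are shown because these genes carry the comparisons below: Peg3 and Usp29 share a start region in a domain with called members, Meg3 is the maternal RNA beside Dlk1, and Magel2, Plagl1 and Igf2r were called themselves. Each window runs from 250 bases before to 50 after the annotated start in RefSeq GRCm38.p6, 5′ to 3′ on the strand of the gene, with CG dinucleotides, the target of DNA methylation, in capitals. Windows were found for 30 members, which had 47 in all. The windows lie at chr7:6730370-6730669, minus strand (Peg3), chr7:6730333-6730632, plus strand (Usp29), chr12:109540746-109541045, plus strand (Meg3), chr7:62376729-62377028, plus strand (Magel2), chr10:13090582-13090881, plus strand (Plagl1) and chr17:12769657-12769956, minus strand (Igf2r).
Peg3: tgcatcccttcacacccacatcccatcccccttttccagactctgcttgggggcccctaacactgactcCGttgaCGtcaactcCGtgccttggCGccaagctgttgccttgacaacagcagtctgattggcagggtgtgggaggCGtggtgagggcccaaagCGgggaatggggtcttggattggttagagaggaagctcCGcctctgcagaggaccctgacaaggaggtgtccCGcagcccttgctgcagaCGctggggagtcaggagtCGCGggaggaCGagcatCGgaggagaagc
Usp29: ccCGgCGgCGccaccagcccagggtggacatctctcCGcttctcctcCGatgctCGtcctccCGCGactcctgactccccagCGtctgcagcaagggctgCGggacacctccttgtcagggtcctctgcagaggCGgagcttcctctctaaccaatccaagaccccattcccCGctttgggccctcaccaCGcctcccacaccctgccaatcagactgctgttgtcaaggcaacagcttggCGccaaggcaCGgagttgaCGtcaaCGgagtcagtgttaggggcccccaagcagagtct
Meg3: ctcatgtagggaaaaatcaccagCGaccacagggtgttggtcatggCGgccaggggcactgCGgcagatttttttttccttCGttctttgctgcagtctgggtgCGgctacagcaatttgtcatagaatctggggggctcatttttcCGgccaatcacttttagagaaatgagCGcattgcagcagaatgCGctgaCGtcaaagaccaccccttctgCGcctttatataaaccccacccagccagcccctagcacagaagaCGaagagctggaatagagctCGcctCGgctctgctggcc
Magel2: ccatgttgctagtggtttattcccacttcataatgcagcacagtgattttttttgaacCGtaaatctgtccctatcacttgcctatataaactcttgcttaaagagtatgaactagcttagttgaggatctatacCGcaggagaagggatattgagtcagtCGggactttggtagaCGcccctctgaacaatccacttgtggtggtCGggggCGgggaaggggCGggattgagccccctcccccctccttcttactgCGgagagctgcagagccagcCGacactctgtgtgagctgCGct
Plagl1: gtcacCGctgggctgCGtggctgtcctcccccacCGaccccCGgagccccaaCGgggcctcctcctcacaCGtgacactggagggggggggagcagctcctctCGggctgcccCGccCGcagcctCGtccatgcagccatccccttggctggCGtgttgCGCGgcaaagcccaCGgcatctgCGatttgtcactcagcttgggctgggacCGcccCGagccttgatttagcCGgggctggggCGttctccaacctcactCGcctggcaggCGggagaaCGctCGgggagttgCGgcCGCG
Igf2r: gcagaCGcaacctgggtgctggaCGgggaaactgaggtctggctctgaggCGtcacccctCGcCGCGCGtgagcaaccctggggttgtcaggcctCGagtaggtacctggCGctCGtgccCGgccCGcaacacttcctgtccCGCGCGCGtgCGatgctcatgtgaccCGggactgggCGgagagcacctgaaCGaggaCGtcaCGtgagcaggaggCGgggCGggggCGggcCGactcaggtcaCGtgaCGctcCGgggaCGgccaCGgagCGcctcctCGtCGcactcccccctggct
The Peg3 and Usp29 windows overlap by 263 bases on opposite strands. Their counts of CG were 13 for Peg3, 17 for Usp29, 13 for Meg3, 10 for Magel2, 26 for Plagl1 and 34 for Igf2r. Over the 47 windows of members the median was 16 CG, against 7 over all 32851 windows. The motif TGACGTCA, which reads the same on both strands and is known as the cAMP response element, was present in the Peg3, Usp29 and Meg3 windows, where Peg3 and Usp29 hold the same copy. It was in 3 of the 47 windows of members and in 1.79% of all windows, which describes the sequence and shows no binding.

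Values are the log2 processed signal of a probe relative to the 75th percentile of its array, and differences are Arid3b-null minus wild type with their limma standard error (±), from 3 arrays per group. On every array between 67.9% and 70.3% of spots exceeded background clearly and none was saturated, and the number of arrays limits the precision. Arid3b itself had 1.27, 1.06 and 1.43 on the null arrays, against 1.98, 2.25 and 3.1 on the wild type arrays. It was lower on every null array, with a difference of -1.19 ± 0.29 and a limma adjusted p of 0.0268. The call was lost without null replicate 1 (0.0898), 2 (0.0862) or 3 (0.0700). Its other probes, tested singly, had differences of -2.33 and -1.37, and the sources used here do not say whether any of the probes lies in the deleted sequence. Null and wild type arrays of the same replicate number shared a slide, the null array always in position 2 and the wild type array in position 1, and genotype and slide position cannot be told apart. Markers of neural tissue (8 of 8), neural crest and mesenchyme (8 of 8) and surface ectoderm (4 of 4) passed the filter on dim probes. Of these markers 5 were called, 37.5%, 25.0% and 0% of the lists in turn, beside 23.5% of all 14906 genes. The neural list had a median difference of -0.31, with Elavl3 (-1.27 ± 0.16) and Nes (-0.93 ± 0.14) called lower and Otx2 (0.57 ± 0.16) higher. The neural crest and mesenchyme list had 0.32, with Tfap2a (0.97 ± 0.13) called higher and Prrx1 (-0.85 ± 0.17) lower. The surface ectoderm list had 0.42, with 0 calls by limma and 1 gene at an unadjusted p under 0.05. The sex-linked list joined Xist with the Y-linked Ddx3y, Eif2s3y, Kdm5d and Uty, so its median of 0.59 does not measure the sex of the pools. Its differences ran from -0.53 to 1.32, 4 above 0 and 1 below, with 0 calls by limma and 2 genes at an unadjusted p under 0.05. Of these 5 genes 3 were called higher without wild type replicate 3 (34.7% of all genes called) and 4 with array weights (44.6%). The part of these markers in the results below was not tested. Wild type replicate 2 and null replicate 1 carried trophoblast RNA signal, described with the placental members below. Of 7 visceral yolk sac endoderm markers 4 were tested, with 2 differences above 0 and 2 below. The defining markers Afp, Ttr and Apoa1 had named probes that the filter did not keep. Rbp4 was called higher (1.72 ± 0.20) and Cubn lower (-1.02 ± 0.21), and all 4 had an unadjusted limma p under 0.05. Their summed linear signal lay between 1.30 and 1.77 on the null arrays, against 0.49 to 0.66 on the wild type arrays. A linear sum weighs the brightest genes most and hides the split in sign, so it does not measure the amount of yolk sac RNA. The part of yolk sac RNA in the results below was not tested.

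Imprinted genes differed in both directions between null and wild type heads. Of the 38 tested, 6 were higher and 7 lower in the null heads at a limma adjusted p under 0.05, and 25 were not called. Over all 14906 genes 23.5% were called, 12.3% higher and 11.3% lower, against 34.2% of the members. The median difference of the members was 0.13, beside -0.04 over all genes. The members called higher were Igf2r, Kcnq1, Zim1, Usp29, Rasgrf1 and Dcn, and those called lower were Dlk1, Peg12, Plagl1, Cdkn1c, Magel2, Mcts2 and Commd1. The number lower fell to 2, 4 and 4 without null replicates 1, 2 and 3, and to 4 and 3 without wild type replicates 1 and 2. The number higher was 3 without null replicate 1, 10 without wild type replicate 3 and 4 to 7 without each other array. Among all genes the share called was 9.71%, 12.3% and 12.4% without null replicates 1, 2 and 3, and 14.4%, 14.6% and 34.7% without wild type replicates 1, 2 and 3. Rasgrf1 passed the filter on dim probes through the null arrays alone and so had to differ. When only probes clearly over background on all 6 arrays were kept, 5 of 37 members were called higher and 7 lower, beside 23.6% of 14181 genes called. Of the 12 called members that were well above background on all arrays, Dlk1, Usp29, Magel2 and Dcn, 4 in all, were called without each of the 6 arrays in turn. Rtl1 and Ddc8 were well above background on no null array and on 1 wild type array each, and so were not tested.

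**Figure D1:**
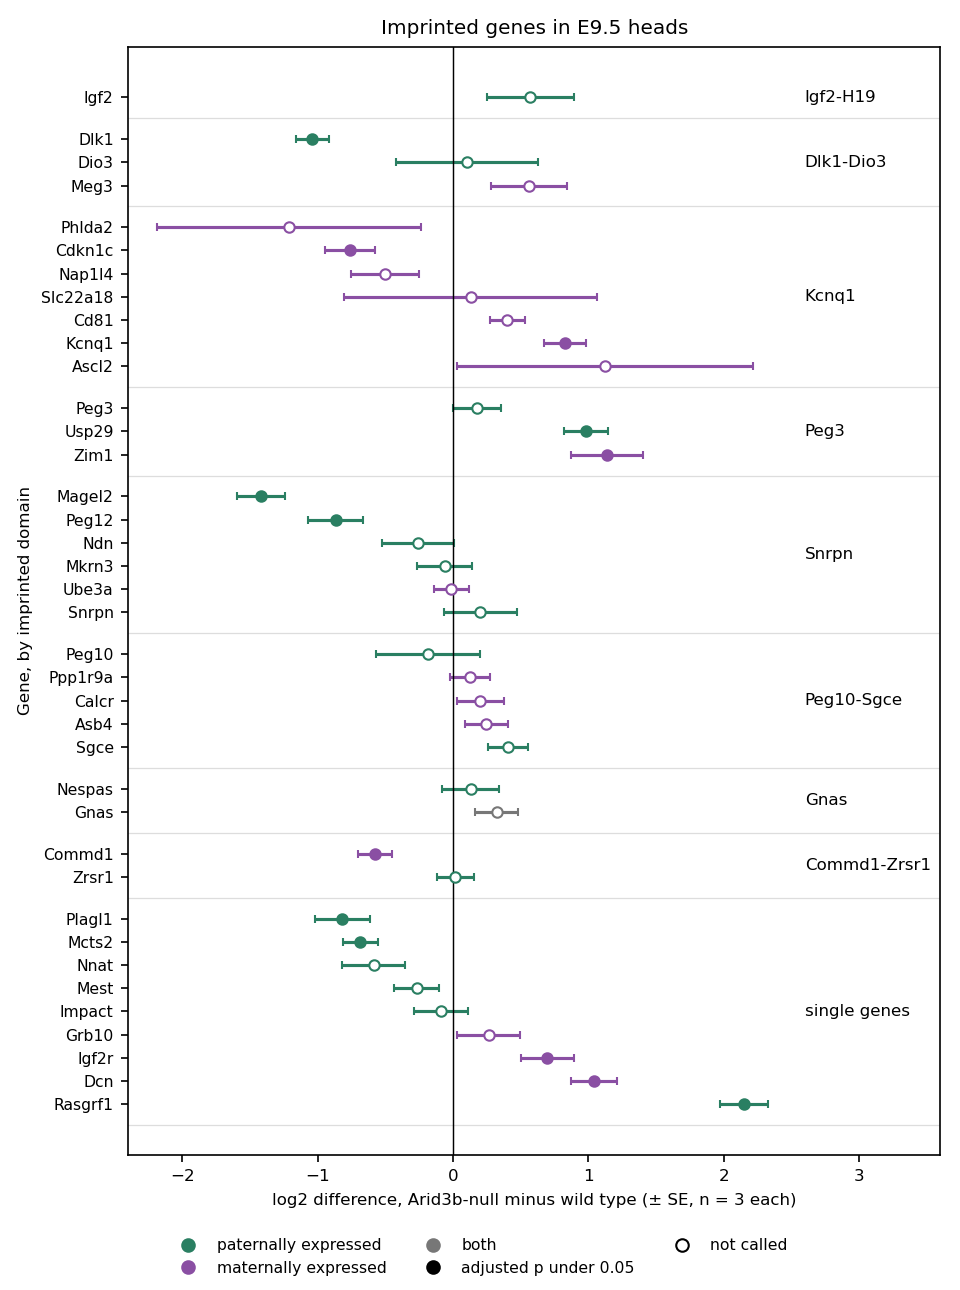
Log2 difference (Arid3b-null minus wild type, ± standard error, n = 3 arrays each) of the 38 tested imprinted genes, grouped by domain. Colour gives the expressed parental copy, and filled points have an adjusted p under 0.05. The 6 members called higher lie in the Kcnq1 and Peg3 domains and among single genes, and the 7 called lower lie in 4 domains and among single genes; Ascl2, Slc22a18 and Phlda2 have the widest errors.

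Among the growth-promoting paternally expressed genes, Dlk1 and Plagl1 were lower in null heads. Of 8 listed and 7 tested, Dlk1 and Plagl1 were called lower and Igf2, Peg3, Peg10 and Mest were not called, while Rasgrf1 was higher but measured above background in null heads alone. With Rasgrf1 counted, 42.9% of the 7 were called, beside 23.5% of all genes. Dlk1, a transmembrane protein with EGF-like repeats, had 4.05, 4.01 and 3.91 on the null arrays, against 5.12, 4.97 and 5.0 on the wild type arrays. All null arrays lay about 1 log2 unit below all wild type arrays and the groups did not overlap. Groups did not overlap for 6307 of all 14906 genes (42.3%), a share that stands beside each such case below. The difference of -1.04 ± 0.12 made it 2.05-fold lower, with a limma adjusted p of 0.00285, and it was -1.07, -0.96 and -1.09 within slides 1, 2 and 3. A second Dlk1 probe, tested among single probes of which 17.9% were called, fell by 0.91 with a limma adjusted p of 0.0309. Plagl1, a zinc finger transcription factor, had 3.20, 3.37 and 2.87 on the null arrays, against 4.12, 4.16 and 3.63 on the wild type arrays. Null replicate 3 was the lowest array and wild type replicate 3 the lowest of its group, and the groups did not overlap. Plagl1 differed by -0.82 ± 0.20 (limma adjusted p 0.0290), but the call was lost without null replicate 1 (0.0927), null replicate 2 (0.0509), null replicate 3 (0.0964), wild type replicate 1 (0.0861) or wild type replicate 2 (0.0880). Its 3 other probes had differences of -0.73, -0.24 and -0.51, all below 0.

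Rasgrf1, an exchange factor that activates Ras, had -5.58, -6.15 and -5.92 on the null arrays, against -8.12, -7.89 and -8.09 on the wild type arrays. The probe was well above background on all 3 null arrays and on no wild type array, so only a bound can be given: Rasgrf1 was at least 1.77-fold higher in null heads (mean signal of null arrays against the higher, per wild type array, of the lowest signal well above background and its own), with a limma adjusted p of 9.10e-04. That p compares null signal with background, and because the probe was kept through the null arrays it is no independent support for a difference. With normexp background correction the difference was 0.22 and was not called (limma adjusted p 0.126), so the bound holds for the processed signal alone. A second Rasgrf1 probe was not well above background on any array.

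Igf2 had 2.54, 2.24 and 2.64 on the null arrays, against 1.25, 1.88 and 2.56 on the wild type arrays. Wild type replicate 1 was low and wild type replicate 3 as high as the null arrays, so the groups overlapped. The difference of 0.57 ± 0.32 had a limma adjusted p of 0.240, and within slides 1, 2 and 3 it was 1.28, 0.36 and 0.07. Peg3, a zinc finger protein, had 2.01, 2.03 and 2.09 on the null arrays, against 1.51, 2.09 and 2.01 on the wild type arrays. Only wild type replicate 1 lay apart from the other 5 arrays. The Peg3 difference was 0.18 ± 0.18 (limma adjusted p 0.519), and a second Peg3 probe had 0.81 ± 0.24 with a limma adjusted p of 0.0595 as a single probe. Peg10, a retrotransposon-derived gene needed in the placenta, had -0.22, -0.87 and -0.75 on the null arrays, against -1.22, -0.39 and 0.33 on the wild type arrays. The wild type arrays spanned a wider range than the null arrays and enclosed it (difference -0.19 ± 0.39, limma adjusted p 0.768). Mest, a hydrolase-like protein of the mesoderm, had 5.68, 5.90 and 5.62 on the null arrays, against 6.21, 6.05 and 5.75 on the wild type arrays. Wild type replicate 3 lay within the null range, and Mest differed by -0.27 ± 0.17 (limma adjusted p 0.284). Rtl1, a retrotransposon-derived gene of the Dlk1-Dio3 domain, was near background as stated above.

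The growth-limiting maternally expressed genes were also split. Of 5 listed and 4 tested, Igf2r was called higher, Cdkn1c lower, and Grb10 and Phlda2 were not called. Igf2r had 2.32, 2.09 and 2.0 on the null arrays, against 1.26, 1.25 and 1.82 on the wild type arrays. The null arrays lay above every wild type array, with wild type replicate 3 the nearest. Igf2r was 1.62-fold higher, a difference of 0.69 ± 0.20 with a limma adjusted p of 0.0425. With the slide as a block the adjusted p was 0.0613, so the call was lost, and the differences within slides 1, 2 and 3 were 1.06, 0.84 and 0.18. It was also lost without null replicate 1 (0.155), null replicate 2 (0.102), null replicate 3 (0.0876), wild type replicate 1 (0.119) or wild type replicate 2 (0.126).

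Cdkn1c, the cyclin-dependent kinase inhibitor p57, had 3.93, 4.04 and 3.87 on the null arrays, against 4.34, 4.96 and 4.82 on the wild type arrays. All null arrays were below the wild type arrays, with wild type replicate 1 the closest to them. The difference of -0.76 ± 0.19 had a limma adjusted p of 0.0273, and the call was lost without null replicate 1 (0.0999), null replicate 2 (0.0678), null replicate 3 (0.0939) or wild type replicate 2 (0.0837). Quantile normalization (0.0863) ended it too, as did normexp (0.0917) and the authors' deposited values (0.0859), with differences of -0.60, -0.58 and -0.60. Grb10, an adaptor that restrains insulin and Igf receptor signalling, had 3.64, 3.27 and 3.39 on the null arrays, against 3.03, 2.83 and 3.65 on the wild type arrays. Wild type replicate 3 was as high as the highest null array, and the difference of 0.26 ± 0.23 was not called (limma adjusted p 0.451). Phlda2, which limits placental growth, had -4.04, -3.65 and -4.31 on the null arrays, against -3.76, -0.26 and -4.33 on the wild type arrays. Its difference of -1.21 ± 0.98 (limma adjusted p 0.410) rested on wild type replicate 2 and was 0.05 without that array.

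Set side by side, the median difference was -0.19 over the 7 growth-promoting paternal genes and -0.25 over the 4 growth-limiting maternal genes, beside -0.04 over all genes. Within slides 1, 2 and 3 the growth-promoting median was 0.50, -0.15 and -0.13, and the growth-limiting median was 0.17, -0.24 and -0.11. Over the 6 growth-promoting genes well above background on all 6 arrays, which leaves out Rasgrf1, the median was -0.23, beside -0.25 over the 4 growth-limiting genes. With Rasgrf1 included, a gene kept through the null arrays alone, the growth-promoting median exceeded the growth-limiting one by 0.06. This gap changed sign with quantile normalization or normexp (-0.13 with each) and without wild type replicate 2 (-0.24), and it was 0.29 without wild type replicate 3. The growth-promoting median turned to 0.19 without wild type replicate 3, and the growth-limiting median to 0.07 without wild type replicate 2. No test was run on this gap, because the members were chosen with earlier results of these data known.

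**Figure D2:**
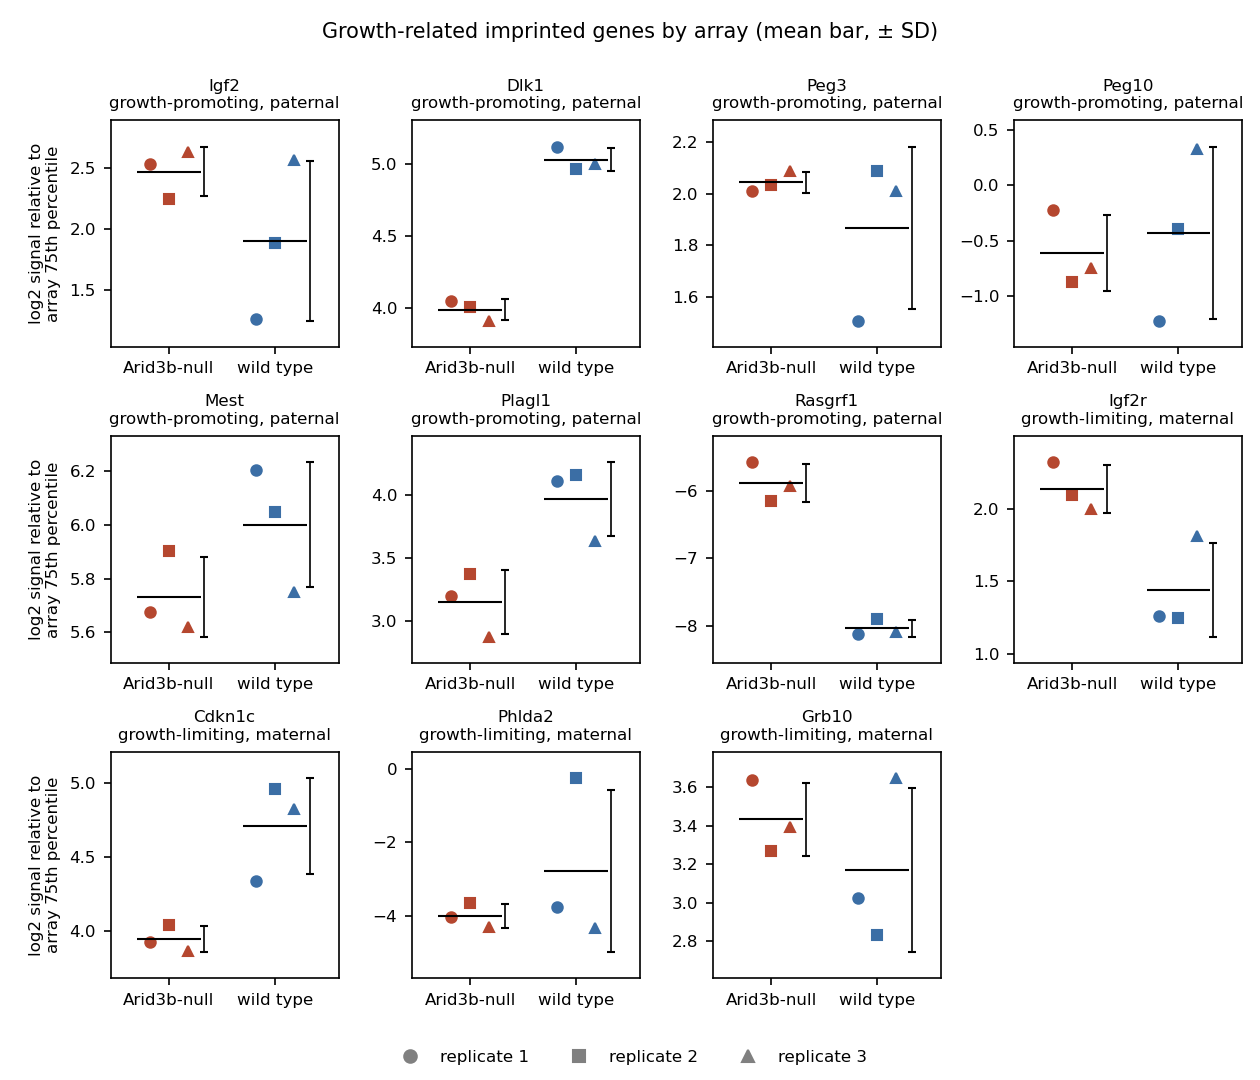
Log2 signal relative to the 75th percentile of the array for the 7 growth-promoting paternal and 4 growth-limiting maternal genes tested, with Arid3b-null arrays left of wild type arrays. Marker shape gives the replicate number, the bar the mean and the whisker the SD (n = 3). Dlk1, Plagl1 and Cdkn1c lie lower and Igf2r and Rasgrf1 higher on all 3 null arrays, and Igf2 and Grb10 overlap through wild type replicate 3.

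By parental copy alone, 2 of 20 tested paternally expressed members, Usp29 and Rasgrf1, were called higher and 5 lower, with a median of -0.07, or -0.09 over the 19 well above background on all 6 arrays. Of 17 tested maternally expressed members, 4 were called higher and 2 lower, with a median of 0.25. The share called was 35.0% of paternal and 35.3% of maternal members, beside 23.5% of all genes. Within slides 1, 2 and 3 the paternal median was 0.14, -0.10 and -0.23 and the maternal median 0.42, 0.32 and 0.13. The paternal median was 0.32 below the maternal one, and this gap lay between -0.22 and -0.43 over leaving out each array. Likewise, no test was run on it. Without null replicate 1 the count of paternal members called lower was 2, and it was 3 when null replicate 3 or wild type replicate 1 or 2 was left out. Maternal members called higher numbered 1 without null replicate 1, and 2 when null replicate 2 or wild type replicate 1 was left out. The 2 lower calls became 0 without null replicate 1 or 2 or wild type replicate 2, and 1 without null replicate 3 or wild type replicate 1. Among all genes 12.3% were called higher and 11.3% lower, and these shares fell as well. Called lower were 4.07%, 5.47% and 5.25% without null replicates 1, 2 and 3, and 6.05% and 6.41% without wild type replicates 1 and 2. Called higher were 5.64%, 6.81% and 8.33% without null replicate 1, null replicate 2 and wild type replicate 1.

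In the Snrpn domain on chromosome 7, a cluster linked in humans to the Prader-Willi and Angelman syndromes, 2 of 6 members were called, both lower. That is 33.3%, beside 23.5% of all genes. Magel2, a MAGE family protein that acts in endosomal protein sorting, had -1.24, -1.64 and -1.72 on the null arrays, against -0.09, -0.29 and 0.05 on the wild type arrays. Every null array was far below every wild type array. Magel2 was 2.68-fold lower, a difference of -1.42 ± 0.18 with a limma adjusted p of 0.00312, and with Dcn it was 1 of 2 members called under every setting run. Peg12, a relative of the Frat proteins that bind Gsk3, had 0.83, 1.10 and 0.78 on the null arrays, against 2.0, 1.93 and 1.38 on the wild type arrays. The null arrays were below the wild type arrays, with wild type replicate 3 the lowest of its group. Peg12 differed by -0.87 ± 0.20 (limma adjusted p 0.0235), the call was lost without null replicate 1 (0.0937), null replicate 3 (0.0866), wild type replicate 1 (0.0708) or wild type replicate 2 (0.0729), and a second probe had -0.51 ± 0.25, not called. Their neighbours were not called: Ndn, the MAGE protein necdin, had -0.26 ± 0.26, Mkrn3, a ring finger protein, had -0.06 ± 0.21, Snrpn, a splicing protein, had 0.20 ± 0.27, and Ube3a, the maternally expressed ubiquitin ligase, had -0.01 ± 0.13. In gene order Ndn, Magel2 and Mkrn3 are adjacent members, so called and uncalled genes lie side by side.

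In the Peg3 domain, also on chromosome 7, 2 of 3 members were called, both higher and expressed from opposite parental copies. Of these 3 members 66.7% were called, beside 23.5% of all genes. Usp29, a paternally expressed ubiquitin-specific peptidase gene read away from Peg3, had -2.65, -2.56 and -2.68 on the null arrays, against -3.38, -3.58 and -3.88 on the wild type arrays. The null arrays were close together and above all wild type arrays. Usp29 was 1.98-fold higher, a difference of 0.98 ± 0.16 with a limma adjusted p of 0.00726. Zim1, a maternally expressed zinc finger gene, had -2.79, -2.24 and -3.26 on the null arrays, against -4.05, -3.67 and -3.98 on the wild type arrays. The null arrays spread by about 1 log2 unit and still lay above every wild type array. Zim1 differed by 1.14 ± 0.27 (limma adjusted p 0.0236), its second probe had 1.02 ± 0.27, and the call was lost without null replicate 1 (0.0812), null replicate 2 (0.0535) or wild type replicate 1 (0.0717). With normexp the differences were smaller, 0.59 for Usp29 and 0.61 for Zim1, and both were called.

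**Figure D3:**
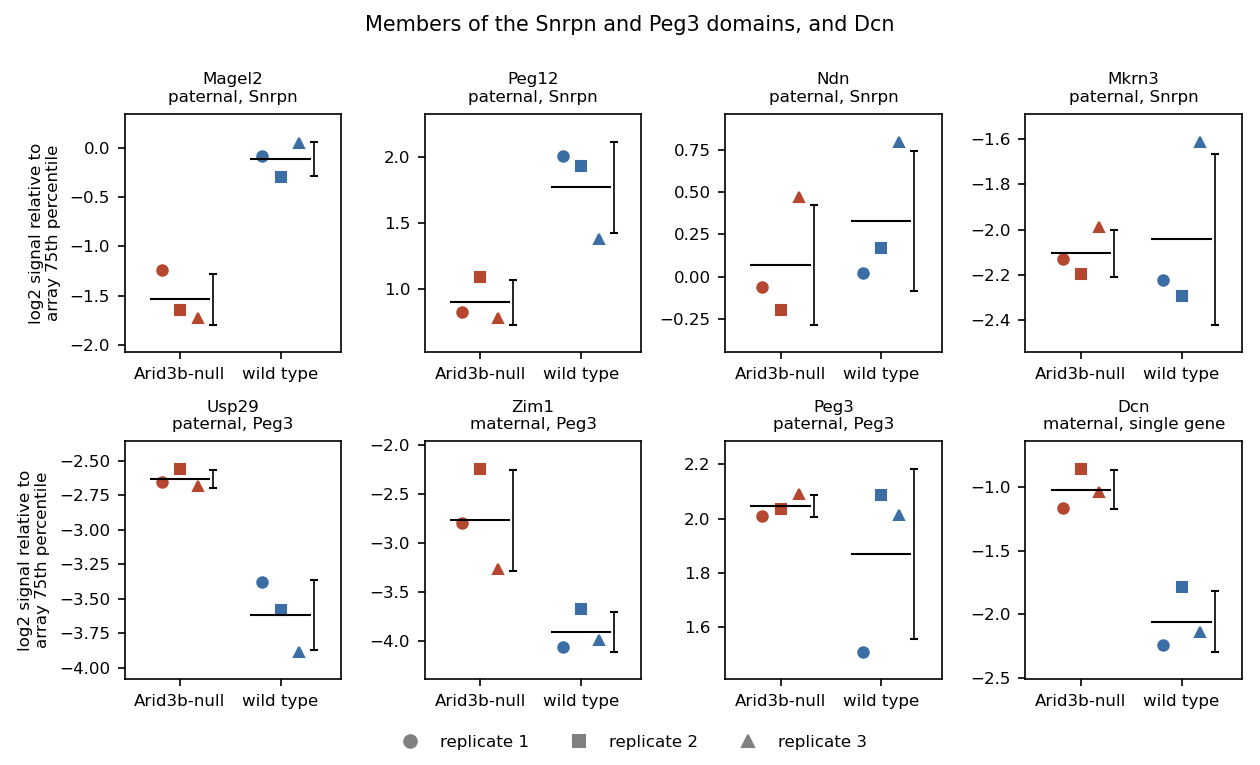
Log2 signal relative to the 75th percentile of the array for members of the Snrpn domain (Magel2, Peg12, Ndn, Mkrn3), the Peg3 domain (Usp29, Zim1, Peg3) and Dcn, with Arid3b-null arrays left of wild type arrays. Marker shape gives the replicate number, the bar the mean and the whisker the SD (n = 3). Magel2 and Peg12 lie lower on all null arrays while Ndn and Mkrn3 overlap, and Usp29, Zim1 and Dcn lie higher on all null arrays.

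In the Kcnq1 domain, whose 7 members are maternally expressed, Kcnq1 was called higher and Cdkn1c lower. The share called, 28.6%, is near the 23.5% of all genes. Kcnq1, a potassium channel, had -2.78, -2.87 and -3.12 on the null arrays, against -3.74, -3.60 and -3.91 on the wild type arrays. All null arrays lay above the wild type arrays. The difference was 0.83 ± 0.15 (limma adjusted p 0.0110), 0.52 with normexp, and the call was lost without null replicate 1 (0.0582). Cd81, a tetraspanin, had 0.40 ± 0.13 with a limma adjusted p of 0.0636, and calls appeared under quantile normalization (0.0309) and for the authors' deposited values (0.0368). Nap1l4, a nucleosome assembly protein, had -0.50 ± 0.25 (limma adjusted p 0.189). The 3 others, Ascl2, Slc22a18 and Phlda2, are described with the placental genes.

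In the Dlk1-Dio3 domain on chromosome 12 the paternal gene Dlk1 was called lower and the maternal noncoding RNA Meg3 was not called. Meg3 had 4.42, 4.26 and 4.63 on the null arrays, against 3.64, 3.48 and 4.50 on the wild type arrays. Wild type replicate 3 lay within the null range and the other wild type arrays below it, giving a difference of 0.56 ± 0.28 (limma adjusted p 0.189). The other Meg3 probes had 0.01 and -0.55, so the probes of this gene disagreed in sign. Dio3, which inactivates thyroid hormone, had 0.10 ± 0.53. In the Peg10-Sgce domain none of 5 members was called by limma, beside 23.5% of all genes, and 1 had an unadjusted p under 0.05. Differences there ran from -0.19 for Peg10 to 0.41 for Sgce, the epsilon sarcoglycan. Gnas, the stimulatory G protein subunit, had 0.32 ± 0.16 (limma adjusted p 0.189), and a further probe, tested singly, had -0.09. Its remaining probe was well above background on all 3 null arrays and on no wild type array, and no difference is given for it. Nespas, its antisense RNA, had 0.13 ± 0.21.

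Commd1, a maternally expressed gene of copper handling, had 2.11, 2.22 and 2.29 on the null arrays, against 2.81, 2.71 and 2.83 on the wild type arrays. The groups did not overlap, and Commd1 differed by -0.58 ± 0.13 (limma adjusted p 0.0186). The call was lost without null replicate 1 (0.0933), null replicate 2 (0.0668), wild type replicate 1 (0.0568) or wild type replicate 2 (0.0523). Zrsr1, the paternally expressed gene that lies inside Commd1, had 0.02 ± 0.14. Mcts2, a paternally expressed retrogene copy of Mcts1, had 1.41, 1.42 and 1.25 on the null arrays, against 2.13, 2.07 and 1.94 on the wild type arrays. Its arrays were tightly grouped with the null arrays lower, a difference of -0.69 ± 0.13 (limma adjusted p 0.0117, lost without null replicate 1 (0.0535)). Whether the probe separates Mcts2 from Mcts1 was not tested.

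Dcn, the matrix proteoglycan decorin, which is maternally expressed in mouse placenta, had -1.16, -0.85 and -1.04 on the null arrays, against -2.24, -1.79 and -2.14 on the wild type arrays. Every null array lay above every wild type array. It was 2.06-fold higher, a difference of 1.04 ± 0.17 with a limma adjusted p of 0.00691. The neural crest and mesenchyme markers, several of them matrix genes, had a median of 0.32, and their part in this difference was not tested. In bulk tissue more cells of a type and more RNA per cell cannot be told apart. Nnat, the paternally expressed proteolipid neuronatin, had -0.59 ± 0.23 and a limma adjusted p of 0.112, and it was called lower with the slide as a block (0.0421). Impact, an inhibitor of the Gcn2 kinase, had -0.09 ± 0.20. The remaining members Ppp1r9a, Asb4 and Calcr had differences between 0.13 and 0.25 and were not called.

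Several members were highest on wild type replicate 3 within their group, among them Igf2, Igf2r, Meg3, Grb10 and Gnas. This held for 16 of the 38 tested, 42.1%, beside 36.0% of all genes. Without that array, when 34.7% of all genes were called, Igf2 (0.90, limma adjusted p 0.0253), Meg3 (0.88, 0.00965), Gnas (0.45, 0.0480) and Cd81 (0.46, 0.0357) were called higher.

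The values of Ascl2, Slc22a18 and Phlda2, genes with known placental roles, turned on wild type replicate 2, whereas Peg10 was highest on wild type replicate 3 and Dcn was called with or without wild type replicate 2. Ascl2, a helix-loop-helix factor of trophoblast, had -0.93, -0.81 and -1.13 on the null arrays, against -3.42, 0.79 and -3.62 on the wild type arrays. Wild type replicate 2 was above the null arrays and the other wild type arrays were far below them. Slc22a18, a transporter-like gene of the same domain, had -1.95, -1.87 and -1.80 on the null arrays, against -3.18, 0.45 and -3.29 on the wild type arrays. Again wild type replicate 2 was above the null arrays and the other wild type arrays below them, and Phlda2 was likewise high on wild type replicate 2 alone. By the height of wild type replicate 2 above the other wild type arrays, Ascl2 ranked 16, Slc22a18 29, Phlda2 34 and Dio3 143 of 14906 genes.

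The trophoblast marker list moved with these arrays. Of 7 markers 4 passed the filter, and the summed linear signal of the 3 with values on every array was 6.96, 0.18 and 0.17 on null arrays 1, 2 and 3, against 0.31, 20.75 and 0.30 on wild type arrays 1, 2 and 3. Prl3d1, a hormone of trophoblast giant cells, had 2.74, -3.50 and -3.58 on the null arrays, against -4.26, 4.13 and -4.17 on the wild type arrays. It was high on null replicate 1 and wild type replicate 2 and low on the other 4 arrays. Plac1 was also highest on wild type replicate 2 (1.27), as was Hand1 (-0.17), while the defining markers Tpbpa and Ctsq were not kept on these arrays. The summed heart marker signal was 3.47 on wild type replicate 2 and between 0.81 and 1.38 on the other 5 arrays.

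With all arrays Ascl2 differed by 1.13 ± 1.09 (limma adjusted p 0.496) and Slc22a18 by 0.13 ± 0.93 (limma adjusted p 0.936). Without wild type replicate 2 Ascl2 was called higher by 2.56 (limma adjusted p 0.00145) and Slc22a18 by 1.36 (limma adjusted p 0.00575). With null replicate 1 left out as well, a setting chosen after seeing the data, the differences were 2.55 (limma adjusted p 0.0102) and 1.40 (limma adjusted p 0.0313). On null replicates 2 and 3, where Prl3d1 was low, Ascl2 was at -0.81 and -1.13, close to null replicate 1. Prl8a2, another prolactin family gene, had -5.51, -0.20 and -3.81 on the null arrays, against -7.36, 2.73 and -6.80 on the wild type arrays. The part of placental RNA in the Ascl2 difference was not tested. With wild type replicate 2 and null replicate 1 left out, 676 genes (4.42%) were called. Of the 13 called members Magel2, Rasgrf1 and Dcn passed, while Dlk1 (limma adjusted p 0.0568) and Usp29 (0.0952) did not. Rasgrf1 was again kept through the null arrays alone, so its call here is no independent support.

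**Figure D4:**
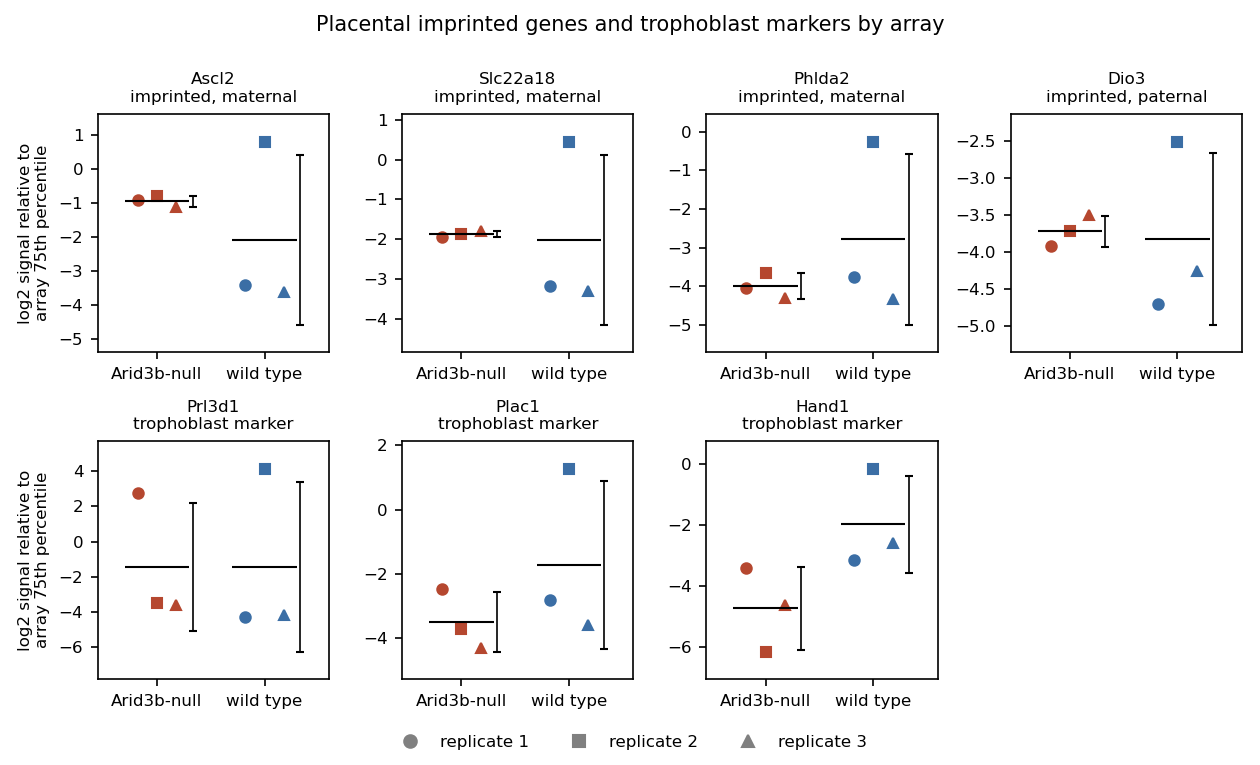
Log2 signal relative to the 75th percentile of the array for 4 imprinted genes (Ascl2, Slc22a18, Phlda2, Dio3) and 3 trophoblast markers (Prl3d1, Plac1, Hand1), with Arid3b-null arrays left of wild type arrays. Marker shape gives the replicate number, the bar the mean and the whisker the SD (n = 3). Wild type replicate 2 is the highest array in all 7 panels, and null replicate 1 has the second highest Prl3d1.

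Of genes of imprint maintenance and methylation, among them Tet, Ctcf and Polycomb genes, 21 were listed and 19 tested. None was called by limma, beside 23.5% of all genes, while 3 had an unadjusted p under 0.05. The smallest p belonged to Tet2, which oxidises methylcytosine (0.65 ± 0.23), Dnmt3b, a methyltransferase (-0.36 ± 0.14), Eed, a Polycomb subunit (-0.48 ± 0.20), and Hells, a chromatin remodeller (-0.41 ± 0.18). The list median was -0.21. Without wild type replicate 3, when 34.7% of all genes were called, there were 3 calls, 1 higher and 2 lower.

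Of 51 other imprinted genes 40 were tested, with 4 called higher, 5 lower and a median of -0.03. The 22.5% called is near the 23.5% of all genes. With both arrays of high Prl3d1 left out limma called 0 of them, beside 4.42% of all genes, with 10 at an unadjusted p under 0.05. Peg13, a paternal noncoding RNA inside Trappc9, had 0.89, 0.91 and 0.82 on the null arrays, against 1.71, 1.66 and 1.68 on the wild type arrays. Trappc9, a trafficking protein, had 2.43, 2.38 and 2.44 on the null arrays, against 1.58, 1.71 and 1.83 on the wild type arrays. The groups lay apart for both genes and in opposite directions, with -0.81 ± 0.12 for Peg13 (limma adjusted p 0.00474) and 0.71 ± 0.13 for Trappc9 (limma adjusted p 0.0102, lost without null replicate 1 (0.0556)). Copg2, a coatomer subunit next to Mest, had 1.07 ± 0.23 (limma adjusted p 0.0165), lost without null replicate 2 (0.0502), null replicate 3 (0.0648), wild type replicate 1 (0.0530) or wild type replicate 2 (0.0519). Cdh15, a muscle cadherin, had 0.90 ± 0.16 (limma adjusted p 0.00867) and 0.57 with normexp. The count called lower was 1 without null replicate 1, 2 or 3 or wild type replicate 1 or 2, and the count called higher was 2 without null replicate 1 or 2. Without these arrays in turn 9.71% to 14.6% of all genes were called.

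Among partners of Igf signalling, 24 of 25 were tested, 5 were called higher and 1 lower, and the median was 0.28. The 25.0% called is near the 23.5% of all genes. With both arrays of high Prl3d1 left out 1 was called higher and 0 lower by limma, with 6 at an unadjusted p under 0.05. In that setting 4.42% of all genes were called. Foxo3, a transcription factor restrained by insulin signalling, had -2.64, -3.48 and -3.14 on the null arrays, against -5.23, -5.33 and -4.78 on the wild type arrays. All null arrays were more than 1 log2 unit above the wild type arrays, and the difference of 2.03 ± 0.25 (limma adjusted p 0.00312) was 0.86 with normexp. Igfbp2, a secreted Igf binding protein, had 1.25 ± 0.24 (limma adjusted p 0.0129), lost without null replicate 1 (0.0604) or null replicate 3 (0.0567). Foxo1 had 0.81 ± 0.16 (limma adjusted p 0.0140), lost without null replicate 1 (0.0600), null replicate 2 (0.0523) or null replicate 3 (0.0532). Insr, the insulin receptor, had 0.90 ± 0.18 (limma adjusted p 0.0148), lost without null replicate 1 (0.0700) or null replicate 2 (0.0575). Igfbp1, the 1 partner called lower, had -1.57 ± 0.35 (limma adjusted p 0.0195) and -0.49 with normexp. Leaving out null replicates 1, 2 and 3 gave counts called higher of 1, 2 and 3. The 1 lower call was lost without null replicate 1, 2 or 3 or wild type replicate 1. Without these arrays in turn 9.71% to 14.4% of all genes were called. Of 7 other cyclin-dependent kinase inhibitors 5 were tested, and Cdkn1a, the inhibitor p21, was called higher at 1.21 ± 0.25 (limma adjusted p 0.0160), lost without null replicate 2 (0.0570) or null replicate 3 (0.0663). Cdkn1b (0.56 ± 0.17), Cdkn2c (-0.72 ± 0.26) and Cdkn3 (-0.39 ± 0.17) were not called, but Cdkn1b was called with the slide as a block (limma adjusted p 0.0429), which gave 2 higher in this list in place of 1.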

How the data were processed

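Total RNA was labelled with Cy3 for Agilent arrays, per the labels' protocols. The deposited scanner files (Feature Extraction, version 10.7.3.1, per the file headers) hold a background-subtracted intensity for each spot, with flags on its quality. The authors also deposited a table of log2 values (24181 rows, 24158 matched to probes), used as an alternative. Its scaling is unknown, and its column medians were 6.76 to 6.77.

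Here, log2 processed signals were set relative to the array's 75th percentile, leaving out control and outlier spots, and averaged per probe. RefSeq accessions (GRCm38.p6) named 26424 of 39429 probes with 1 symbol and none with several. A probe was kept when it was well above background throughout at least 1 group and had a value on 5 arrays or more (26288 kept), and the brightest probe stood for its gene. Groups were compared in limma 3.58.1 (lmFit, eBayes, two-sided) under R 4.3.3, with Benjamini-Hochberg adjustment over 14906 genes and a threshold of 0.05. In a simulation on 14898 genes, 2, 20, 42 and 47 of 50 changed genes were recovered at 1.5, 2, 4 and 8-fold, with 4 false calls. It drew independent noise and changed a far smaller share of genes than the 23.5% called here. These figures therefore do not give the recovery or false calls of the real comparison.

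The members, lists and tests were chosen with earlier results of these data known, so no p is given over a list. Values on every array are given for called and growth-related members, and up to 4 genes with the smallest p were named per pathway list. Igfbp1 was added as the 1 Igf partner called lower. Ascl2, Slc22a18, Meg3, Peg13, Trappc9, Foxo3, Prl8a2 and the trophoblast and yolk sac markers had their array values or sums printed after these were seen. Alternatives were other normalizations, normexp on median signals, other filters and probe rules, a trend with robust variance, array weights, the replicate block and leaving out each array. Replicate numbers mark a shared slide and scan, per the file headers, and deviations from the group means of same-numbered arrays correlated at -0.20, 0.15 and 0.42 across genes, which are not independent replicates.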

Additional observations from a re-analysis of the deposited data

How the results depend on the processing

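Called members kept their direction in every setting run: 171 of their values under alternatives stayed called and 47 lost the call, while 20 values of uncalled members gained one. Genes called numbered 3509, and 2272 without the filter on dim probes, 6655 with array weights, 1464 to 5208 over leaving out each array and 676 with both arrays of high Prl3d1 left out, a setting chosen after seeing the data. Members called higher numbered 6, 11 with array weights and 3 to 10 over leaving out each array. Members called lower numbered 7, 4 in the deposited table, 4 without the filter, 2 to 7 over leaving out each array and 1 with both arrays left out. The deposited table covered 31 of the 38 members, with 6 growth-promoting, 16 paternal and 15 maternal. Its counts, medians and gaps therefore rest on fewer genes. The growth-promoting median of -0.19 ran from -0.24 to 0.19 over leaving out each array, and was 0.028 in the deposited table and 0.084 with array weights. The growth-limiting median of -0.25 ran from -0.38 to 0.074, and was 0.033 with both arrays out. Their gap of 0.063, which includes Rasgrf1, was -0.13 with quantile normalization, -0.13 with normexp, -0.25 with both arrays out and -0.24 to 0.29 over leaving out each array. The maternal median of 0.25 was 0.42 in the deposited table and 0.17 to 0.33 over leaving out each array. The paternal minus maternal gap of -0.32 was -0.42 with normexp, -0.42 in the deposited table, -0.24 as the mean of a gene's probes and -0.43 to -0.22 over leaving out each array. The replicate block called 3704 genes, with 5 members higher and 8 lower; it ended the call of Igf2r (limma adjusted p 0.0613), gave one to Nnat (0.0421) and changed no other member's call. In the pathway lists it added calls for Cdkn1b, Igf1r, Igfbp3 and Ano1, with 7 Igf partners higher in place of 5. The causes of these shifts were not tested.

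Differences that changed sign all belong to uncalled members. With normexp they were -0.017 for Dio3, -0.081 for Slc22a18 and -0.022 for Zrsr1, which was -0.032 with quantile normalization and -0.0098 with median centring. With array weights they were -0.64 for Dio3, 0.084 for Peg10, -1.20 for Slc22a18, -0.39 for Ascl2 and 0.11 for Mkrn3. As the mean of a gene's probes, Mkrn3 was 0.027 and Impact 0.094. With both arrays of high Prl3d1 left out, Phlda2 was 0.071, Grb10 -0.0052, Nespas -0.12, Impact 0.048 and Zrsr1 -0.081. Over leaving out each array the ranges were -0.33 to 0.76 for Dio3, -0.0042 to 0.29 for Peg3, -0.58 to 0.19 for Peg10, -1.98 to 0.051 for Phlda2, -0.51 to 1.36 for Slc22a18, -0.052 to 0.28 for Nespas, -0.19 to 0.15 for Mkrn3, -0.059 to 0.039 for Ube3a, -0.28 to 0.038 for Impact and -0.078 to 0.074 for Zrsr1.

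The 3 arrays per group, signal near background (Rasgrf1, Rtl1, Ddc8) and the fixed slide positions limit these results, and total RNA does not show which parental copy was expressed.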
